A study of Drosophila melanogaster with 9 samples.

Results

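The genes described here encode 3 muscle myosin chains (Mhc, Mlc1 and Mlc2), 2 thick filament proteins that accompany myosin (Mf and fln) and 5 troponin C isoforms (TpnC4, TpnC41C, TpnC47D, TpnC73F and TpnC25D) of Drosophila melanogaster. They are 10 of the 17490 genes in the deposited table, found by their symbols, and each of the 10 symbols was found. The genes were chosen by their measured RPKM across these groups, so their levels are given as a description and without p-values. RPKM is the read number divided by exon length in kilobases and by a scaled library size.

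RNA was sequenced from 3 independent replicates of each group: hemocytes of adults (AD), peripheral hemocytes of larvae (PH) and lymph glands of larvae (LG). All animals were females of the w1118 strain, without treatment, and every replicate pooled many animals. AD came from 5-day-old flies, which were perfused with PBS through a needle in the thorax after the tip of the abdomen had been cut off. PH came from wandering larvae of the last stage, whose dorsal cuticle was opened with forceps. LG were the anterior lobes of the lymph gland, the larval blood-forming organ, dissected from larvae of the same stage.

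In striated muscle, myosin heavy chains form the thick filament and their heads pull on actin. Each head carries an essential and a regulatory light chain on its neck. Calcium binds troponin C on the thin filament, which lets tropomyosin move and myosin reach actin. Fruit flies have 1 muscle myosin heavy chain gene, Mhc, whose variants arise by alternative splicing, whereas troponin C is encoded by several genes that differ between muscles. Indirect flight muscle, found only in the adult thorax, uses TpnC4 as its main troponin C and needs flightin, the product of fln, to build its thick filaments. TpnC47D and TpnC73F are known from larval muscles and from other adult muscles. Myosin light chains, actin and calmodulin also have non-muscle forms, which blood cells use to move.

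Between 2745573 and 6779942 reads were recovered per sample from the deposited values, and ribosomal RNA genes took 43.0 to 61.5% of them. The paper reports a larger number of mapped reads per sample, and the reason for the difference was not tested. An RPKM of 1 stood for 3.02 to 9.03 reads per kilobase of exon, so levels below about 1 rested on few reads. All 14 hemocyte markers (among them srp, Hml, Pxn and crq) had RPKM above 1 in every sample. The summed RPKM of 6 larval fat body genes was 9.04 to 18.4 in AD, against 1430 to 1996 in PH and 108 to 175 in LG. Genes of adult fat body and yolk went the other way, with sums of 7979 to 12399 RPKM in AD, 33.9 to 37.9 RPKM in PH and 6.69 to 42.9 RPKM in LG. Bulk samples cannot tell fewer cells of a type from less RNA per cell. The 10 genes together held 0.528 to 0.569% of the reads outside ribosomal RNA genes in AD, against 0.00749 to 0.0161% in PH and 0.0945 to 0.132% in LG.

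**Figure D1:**
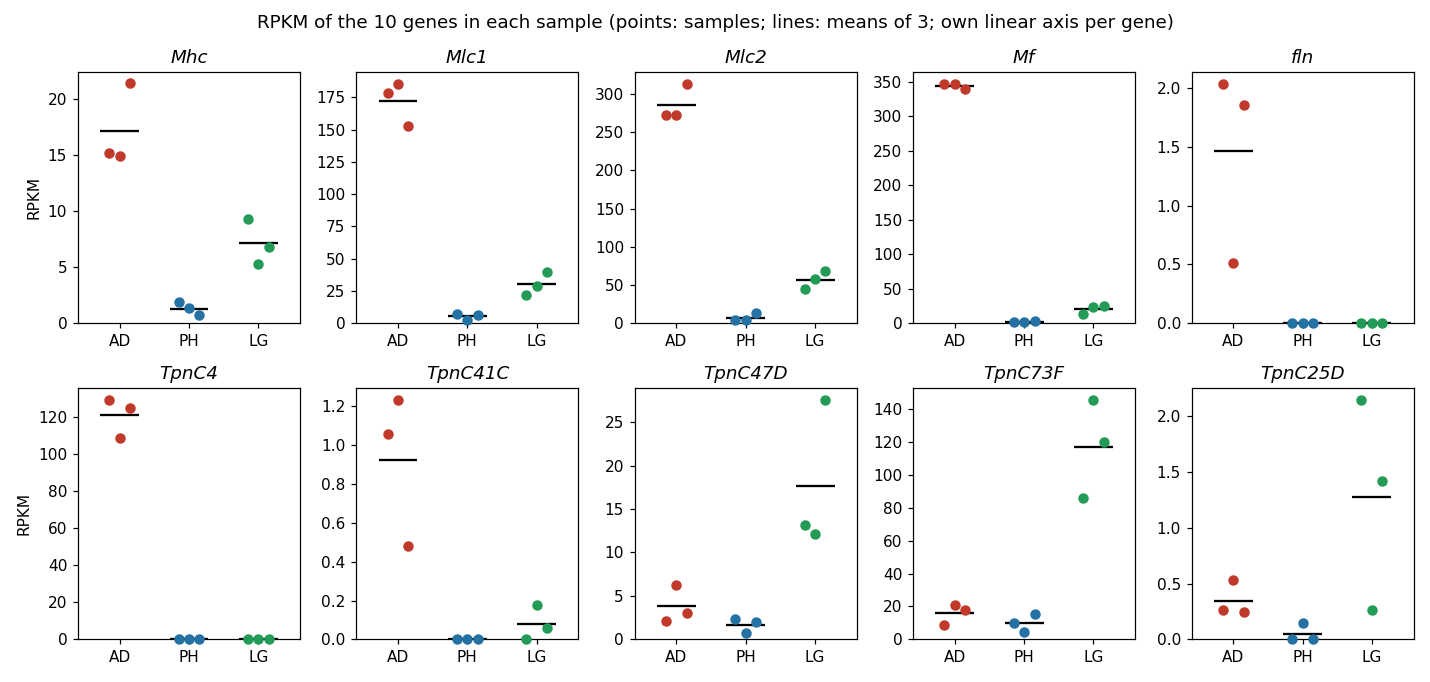
RPKM of the 10 genes (1 panel each, with its own linear axis from 0) in AD, PH and LG. Points are samples and lines are means of 3 samples. Mhc, Mlc1, Mlc2, Mf and TpnC4 stand highest in AD, whereas TpnC47D and TpnC73F stand highest in LG.

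Both muscle light chains were abundant in AD, intermediate in LG and low in PH. Mlc2, the regulatory light chain (chromosome 3R, 30171438 to 30174551 on BDGP6.54), had 273, 272 and 313 RPKM in AD, against 4.47, 4.21 and 12.7 RPKM in PH and 45.3, 58.0 and 67.8 RPKM in LG. The 3 groups did not overlap. The mean was 40.1-fold higher in AD than in PH and 5.02-fold higher in AD than in LG, and 8.0-fold higher in LG than in PH. Mlc1, the essential light chain (chromosome 3R, 27657078 to 27660177), had 178, 186 and 153 RPKM in AD, against 6.79, 2.83 and 6.06 RPKM in PH and 22.0, 28.5 and 39.5 RPKM in LG. Its groups were also apart, with means 33.0-fold higher in AD than in PH, 5.74-fold higher in AD than in LG and 5.75-fold higher in LG than in PH. For both light chains, the lowest AD sample lay above the highest LG sample.

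Mhc, the heavy chain that both light chains bind (chromosome 2L, 16766566 to 16788766), followed the same order at a lower level. It had 15.2, 14.9 and 21.4 RPKM in AD, against 1.86, 1.32 and 0.688 RPKM in PH and 9.34, 5.28 and 6.83 RPKM in LG. The groups did not overlap, but AD and LG were close, with a mean 2.40-fold higher in AD. AD and PH differed 13.3-fold. The exon length of Mhc joins the alternative exons of 21 annotated transcripts into 9058 bases, of which each transcript holds a part. How far this affects its level relative to other genes was not tested. The ratio of Mhc to Mlc2 within a sample was 0.0548 to 0.0683 in AD, against 0.0541 to 0.415 in PH and 0.0910 to 0.206 in LG. It overlapped between AD and PH, and LG lay above every AD sample.

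The thick filament protein myofilin, the product of Mf (chromosome 3R, 15170625 to 15181510), had the highest level of the 10 genes in AD. Its RPKM was 347, 346 and 340 in AD, against 1.75, 1.10 and 3.48 in PH and 13.7, 23.5 and 24.7 in LG. The AD samples lay within a narrow range far from both larval groups. The mean was 163-fold higher in AD than in PH and 16.7-fold higher in AD than in LG, and 9.78-fold higher in LG than in PH. Its exon length of 5296 bases joins 17 transcripts. Flightin (fln, chromosome 3L, 19989551 to 19991220) was detected only in AD among these 9 samples, at 2.04, 0.509 and 1.86 RPKM, which were 8, 2 and 8 reads. No read was found in the 3 PH and 3 LG samples. Counting 3 reads per library as the limit of a sample at 0, the mean of fln in AD was 2.45-fold the limit of PH and 1.93-fold that of LG. These ratios take the AD mean as exact and are no lower bounds. AD replicate 2, at 0.509 RPKM, lay below its own limit of 0.763 RPKM. Of its exon bases, 61.6% overlap the antisense gene asRNA:CR45161, whose own value was 0.292 RPKM in AD replicate 3 and 0 in the other samples. Whether the counting used strand, and how it assigned reads that overlap both genes, is not given in the sources used here. The values of fln may therefore miss reads of the overlap or include reads of that gene, and its ratios to the limits carry the same uncertainty.

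The troponin C genes split into different orders. TpnC4, the flight muscle isoform (chromosome 2R, 5503437 to 5507866), was present in AD at 129, 109 and 125 RPKM, against 0.185, 0 and 0 RPKM in PH and 0 RPKM in all 3 LG samples. These values were 331, 279 and 351 reads in AD, with 1 read in PH replicate 1 and none in the other larval samples. Relative to the limit of 3 reads per library, the AD level of TpnC4 was at least 104-fold higher than that of LG. Against the 1 read in PH, the ratio of pooled read rates was 1614, with a 95% exact interval of 289 to 63833 that covers counting error only.

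TpnC73F (chromosome 3L, 17046063 to 17048390) had its highest level in LG. It had 8.76, 20.9 and 18.0 RPKM in AD, against 10.2, 4.29 and 15.7 RPKM in PH and 85.8, 146 and 120 RPKM in LG. AD and PH overlapped, whereas every LG sample lay above all AD and PH samples. The LG mean was 7.37-fold that of AD and 11.6-fold that of PH. TpnC47D (chromosome 2R, 11273845 to 11275286) had 2.09, 6.27 and 3.06 RPKM in AD, against 2.39, 0.689 and 1.97 RPKM in PH and 13.1, 12.1 and 27.6 RPKM in LG. Its groups stood as those of TpnC73F, with AD and PH overlapping and LG above both, at 4.62-fold the mean of AD and 10.5-fold that of PH.

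The other troponin C genes were close to the limit of detection. TpnC41C (chromosome 2R, 5065237 to 5070210), which is known from adult muscles, had 1.06, 1.23 and 0.482 RPKM in AD, against 0 in all 3 PH samples and 0, 0.176 and 0.0589 RPKM in LG. The AD values were 6, 7 and 3 reads and the LG values 0, 1 and 1 reads. Its AD mean was 2.23-fold the limit of 3 reads per library in PH. This is no lower bound, since AD replicate 3 stood at its own limit with 3 reads. The ratio of pooled read rates of AD to LG was 15.4 (95% exact interval 3.63 to 138). TpnC25D (chromosome 2L, 5216701 to 5219053) had 0.265, 0.529 and 0.242 RPKM in AD, against 0, 0.145 and 0 RPKM in PH and 2.14, 0.264 and 1.42 RPKM in LG. LG replicate 2 lay among the AD samples, with 1 read, whereas the other LG samples had 16 reads each.

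The summed level of the 5 troponin C genes was close in AD and LG while its makeup differed. The sum was 142 ± 4.55 RPKM in AD, against 11.9 ± 6.33 RPKM in PH and 136 ± 30.6 RPKM in LG (SD, n = 3 each). TpnC4 made up 91.4, 79.0 and 85.2% of this sum in the AD samples, against 1.44, 0 and 0% in PH and 0% in LG. TpnC73F made up 11.2 ± 4.59% in AD, against 84.2 ± 4.47% in PH and 85.8 ± 5.84% in LG (SD, n = 3 each). The PH and LG shares of TpnC73F overlapped, although the summed level of PH was far below that of LG. TpnC47D made up 2.71 ± 1.63% in AD, against 14.4 ± 3.82% in PH and 13.1 ± 5.43% in LG. The ratio of TpnC47D to TpnC73F overlapped between the groups, at 0.170 to 0.300 in AD, against 0.126 to 0.233 in PH and 0.0831 to 0.230 in LG.

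**Figure D2:**
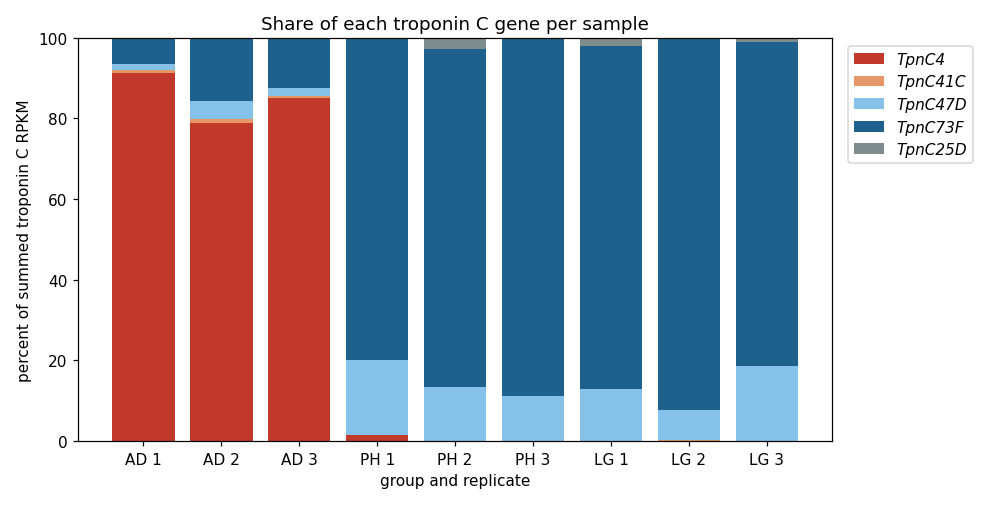
Share of each troponin C gene in the summed RPKM of the 5 genes, in percent, for each of the 9 samples (1 bar per sample). TpnC4 holds 79.0 to 91.4% in AD, and TpnC73F holds 79.9 to 88.8% in PH and 80.5 to 92.1% in LG.

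Ratios within a sample do not depend on how samples were scaled to each other. Mf relative to Mlc2 was 1.08 to 1.27 in AD, against 0.261 to 0.392 in PH and 0.302 to 0.405 in LG. AD thus stood apart from both larval groups, which overlapped. TpnC73F relative to Mlc2 was 0.0321 to 0.0768 in AD, against 1.02 to 2.29 in PH and 1.77 to 2.51 in LG, again with AD apart and the larval groups overlapping. The ratio of the light chains, Mlc1 to Mlc2, overlapped between all groups, at 0.488 to 0.682 in AD, against 0.476 to 1.52 in PH and 0.487 to 0.583 in LG.

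**Figure D3:**
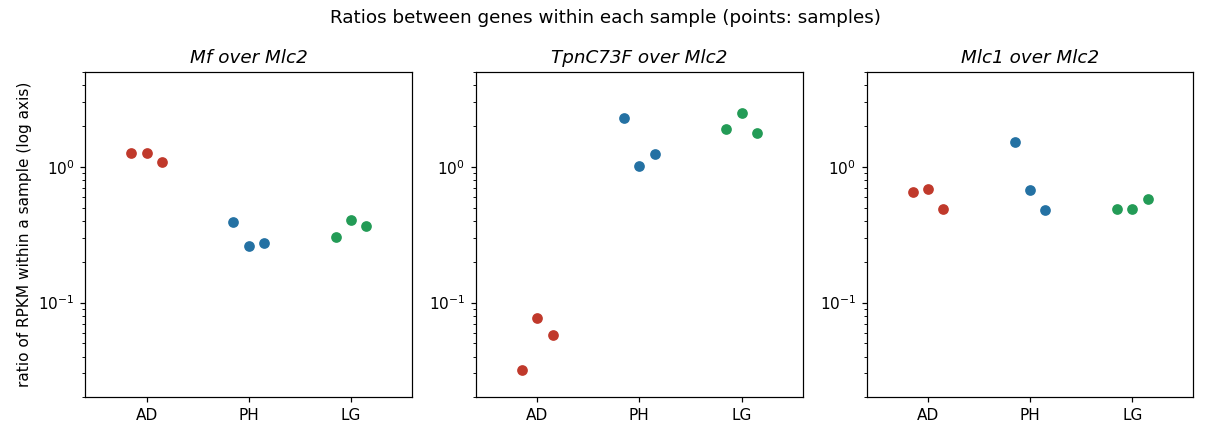
Ratios of RPKM between genes within each sample (log axis), with 1 point per sample of AD, PH and LG. Mf over Mlc2 is at least 1.08 in AD and at most 0.405 in the larval samples, TpnC73F over Mlc2 is at most 0.0768 in AD and at least 1.02 in the larval samples, and Mlc1 over Mlc2 overlaps.

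Differences between groups were fitted with limma over all genes that exceeded an RPKM of 1 in 3 or more samples of the 6 in a pair, on the log2(RPKM + 1) scale, which understates the change of low genes. Calls needed an adjusted p below 0.01 together with a log2 fold change beyond 1. Of the 10 genes, 7 passed the filter between AD and PH. Called higher in AD were 5 (Mhc, Mlc1, Mlc2, Mf and TpnC4) and none was called lower, whereas 23.0% of all genes tested were called higher in AD and 13.9% lower. The log2 fold changes of AD over PH were 3.01 ± 0.26 for Mhc, 4.86 ± 0.25 for Mlc1, 5.29 ± 0.33 for Mlc2, 6.87 ± 0.25 for Mf and 6.84 ± 0.16 for TpnC4 (SE, n = 3 each). TpnC47D, at 0.81 ± 0.39, and TpnC73F, at 0.68 ± 0.44, did not pass. The median over the 7 genes was 4.86, beside 0.046 over all genes tested. Since TpnC4 was at or near 0 in the larval samples, its fitted values depend on the pseudocount and are no bounds. It exceeded an RPKM of 1 in AD samples only and so passed the filter through AD. Against either larval group, a call of TpnC4 could only be higher in AD, and the counts and medians include it.

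Between AD and LG, 7 genes were tested, with 5 called higher in AD (the same 5) and 2 called lower (TpnC47D and TpnC73F). Of all genes tested, 20.0% were called higher in AD and 10.4% lower. The log2 fold changes of AD over LG were 1.17 ± 0.25 for Mhc, 2.52 ± 0.21 for Mlc1, 2.32 ± 0.17 for Mlc2, 4.04 ± 0.22 for Mf and 6.93 ± 0.17 for TpnC4 (SE, n = 3 each). They were -1.95 ± 0.41 for TpnC47D and -2.85 ± 0.33 for TpnC73F. The median was 2.32, beside 0.071 over all genes tested, and it stays the same with TpnC4 at its bound. Mhc was the weakest of these calls. It was lost in 11 of 16 alternatives, over which its log2 fold change ranged from 0.85 to 1.36. Among these were leaving out any 1 AD sample or LG replicate 2 or 3, a pseudocount of 5, no filter, quantile normalization, and scaling to total reads or to reads outside ribosomal RNA genes. TpnC47D was no longer called without AD replicate 1 or 3, or without LG replicate 1 or 3.

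Between PH and LG, 6 genes were tested and all 6 were called lower in PH, beside 7.63% of all genes tested called higher in PH and 6.57% lower. The log2 fold changes of PH over LG were -1.83 ± 0.30 for Mhc, -2.34 ± 0.32 for Mlc1, -2.97 ± 0.37 for Mlc2 and -2.83 ± 0.34 for Mf (SE, n = 3 each). They were -2.76 ± 0.38 for TpnC47D and -3.53 ± 0.40 for TpnC73F. The median was -2.79, beside 0.013 over all genes tested. Mhc was no longer called without PH replicate 2 or 3, or without LG replicate 1 or 3. The filter left out fln, TpnC41C and TpnC25D in every pair and TpnC4 between PH and LG. The comparisons share groups, and the genes were chosen by these same values, so the counts are a description. Counting all 10 genes by their samples, 8 lay higher in AD than in PH without overlap and 2 overlapped, where 18.4% of all 17490 genes had every AD sample higher and 14.5% every AD sample lower. Between AD and LG, 7 lay higher in AD while 2 lay lower and 1 overlapped, beside 16.8% of all genes higher and 12.5% lower. Between PH and LG, 7 lay lower in PH and 3 overlapped, with fln at 0 in both, beside 11.4% of all genes higher in PH and 11.2% lower. Some of the genes in these counts rested on few reads. TpnC25D had 1, 2 and 1 reads in AD, 0, 1 and 0 in PH, and 1 in LG replicate 2. The gene fln had 2 reads in AD replicate 2.

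**Figure D4:**
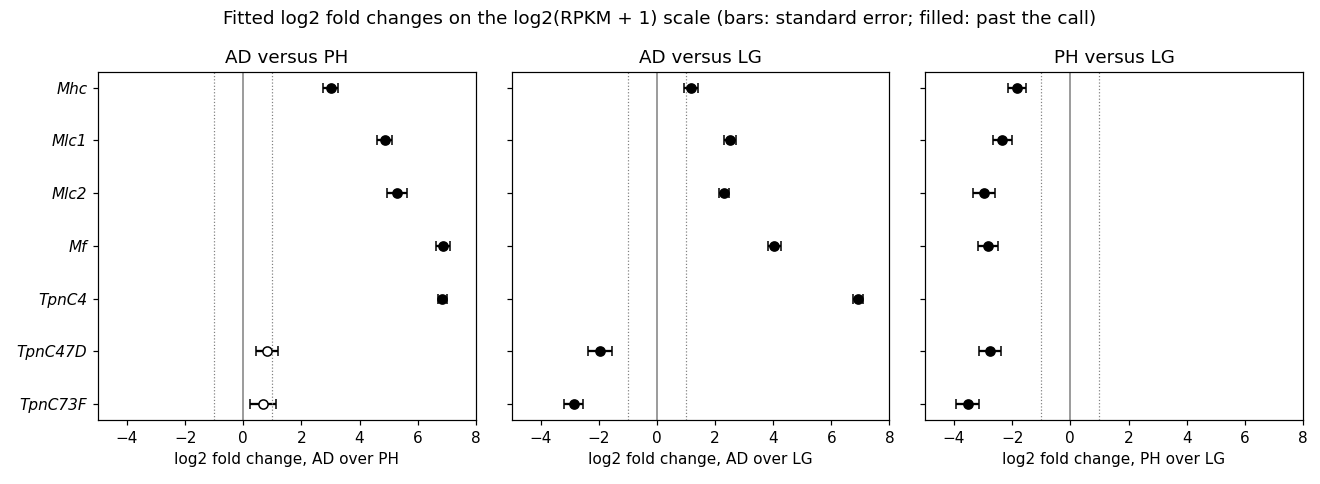
Fitted log2 fold changes on the log2(RPKM + 1) scale (x axes) of the genes tested in each pair of groups, with bars of 1 standard error. Filled points passed the call and dotted lines mark a log2 fold change of 1 in either direction. All 7 genes lie to the right of 0 for AD over PH, with TpnC47D and TpnC73F short of the call. For AD over LG, TpnC47D and TpnC73F lie to the left and the other genes to the right, and for PH over LG all 6 genes lie to the left.

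Other genes of the sarcomere were described from lists of its parts. For comparison with each list below, 23.0% of all genes tested were called higher in AD than in PH and 13.9% lower. Between AD and LG these shares were 20.0% and 10.4%. Some genes of the lists (among them Strn-Mlck, Unc-89, Act88F, Zasp67, bru1, vg and jar) exceeded an RPKM of 1 in AD samples only. They passed the filter through AD, and a call could only be higher in AD. The genes bt, Mlp60A, sls, RyR, salm and ck exceeded this level in no PH sample. Between AD and PH their calls could therefore also only be higher in AD, and the counts and medians of the lists include all these genes. Of 6 thick filament genes and regulators, all 6 were tested and called higher in AD than in PH, and 4 were called higher in AD than in LG (Prm, flw, Strn-Mlck and Unc-89). Paramyosin (Prm), in the core of the thick filament, had 47.4, 50.7 and 33.6 RPKM in AD, against 2.53, 0.984 and 0.824 RPKM in PH and 6.35, 5.85 and 5.97 RPKM in LG. Its log2 fold changes were 4.24 for AD over PH (limma, adjusted p = 5.3e-06) and 2.65 for AD over LG (limma, adjusted p = 3.2e-05). The titin-like kinase Strn-Mlck averaged 8.71 ± 0.653 RPKM in AD, against 0.254 ± 0.102 RPKM in PH and 0.562 ± 0.355 RPKM in LG (SD, n = 3 each). The phosphatase genes flw and Mbs were the most even of the list, with 29.6 and 12.4 RPKM in AD, against 7.41 and 4.75 RPKM in PH and 8.03 and 6.25 RPKM in LG. The projectin gene bt was called between AD and PH but not between AD and LG, with means of 13.5 ± 0.883 RPKM in AD, against 0.639 ± 0.232 RPKM in PH and 8.68 ± 1.04 RPKM in LG. The median log2 fold change of the list was 2.68 for AD over PH and 1.92 for AD over LG.

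Thin filament genes were highest in different groups. Of 12 found, 12 were tested between AD and PH, with 5 called higher in AD (Act88F, Tm2, up, Mp20 and Chd64) and 2 lower (cpa and cpb). Between AD and LG, 11 were tested, with 2 called higher in AD (Act88F and Tm2) and 2 lower (Act57B and Mp20). These counts stood beside 20.0% of all genes tested called higher in AD and 10.4% lower. Without a filter, 4 in place of 7 were called between AD and PH and 2 in place of 4 between AD and LG. The median log2 fold change was 0.88 for AD over PH and -0.13 for AD over LG. Act88F, the actin of indirect flight muscle, had 69.5, 44 and 62.3 RPKM in AD, against 0.592, 0.114 and 0.326 RPKM in PH and 0.420, 0 and 0 RPKM in LG. Its log2 fold changes were 5.46 for AD over PH (limma, adjusted p = 5.3e-07) and 5.70 for AD over LG (limma, adjusted p = 4.5e-06). Tropomyosin 2 (Tm2), which covers myosin binding sites on actin, had 108, 116 and 94.8 RPKM in AD, against 2.65, 1.60 and 2.98 RPKM in PH and 23.5, 21.5 and 30.2 RPKM in LG. Its groups were apart and in the order of the light chains.

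Both thin filament genes that fell in AD relative to LG are muscle genes. Act57B, a muscle actin prominent in larvae, had 18.6, 42.8 and 32.1 RPKM in AD, against 21.3, 10.4 and 26.2 RPKM in PH and 111, 108 and 124 RPKM in LG. AD and PH overlapped and LG lay far above. The log2 fold changes were -1.92 for AD over LG (limma, adjusted p = 0.00088) and -2.60 for PH over LG (limma, adjusted p = 0.00081). Mp20, a calponin-like muscle protein, had 8.03, 23.0 and 8.61 RPKM in AD, against 3.15, 0.767 and 3.84 RPKM in PH and 69.5, 66.8 and 79.2 RPKM in LG. Its log2 fold change was -2.51 for AD over LG (limma, adjusted p = 0.00085) and -4.47 for PH over LG (limma, adjusted p = 0.00019). Its call between AD and PH was lost without any 1 of the 6 samples. Troponin T (up) averaged 58.5 ± 10.6 RPKM in AD, against 11.4 ± 6.72 RPKM in PH and 35.4 ± 8.17 RPKM in LG (SD, n = 3 each). Called lower in AD than in PH were cpa and cpb, the subunits of the actin capping protein, which non-muscle cells also use. They averaged 40.6 and 31.9 RPKM in AD, against 144 and 192 RPKM in PH and 63.4 and 56.9 RPKM in LG. Tm1 differed little between the groups, at 20.3 ± 1.03 RPKM in AD, against 25.6 ± 1.67 RPKM in PH and 22.3 ± 1.56 RPKM in LG.

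Of 7 genes of the Z-disc, where thin filaments are anchored, and of titin-like proteins, 5 were called higher in AD than in PH (Zasp66, Zasp52, Zasp67, Mlp60A and sls) and 3 higher in AD than in LG (Zasp66, Zasp52 and Zasp67), with none lower. Between AD and PH, 3 were called with a pseudocount of 5, where sls and Zasp67 were lost, and 2 with a filter at RPKM above 5. sls was also lost without a filter. Zasp66 had 67.6, 68.8 and 68.9 RPKM in AD, against 1.90, 1.87 and 2.59 RPKM in PH and 9.59, 9.27 and 11.8 RPKM in LG. Its groups were apart, with log2 fold changes of 4.48 for AD over PH (limma, adjusted p = 1.6e-07) and 2.64 for AD over LG (limma, adjusted p = 1.1e-05). Zasp52 had a different order, with 44.2 ± 1.91 RPKM in AD, against 8.06 ± 1.30 RPKM in PH and 2.52 ± 1.49 RPKM in LG (SD, n = 3 each). Zasp67 averaged 1.95 RPKM in AD, against 0 RPKM in PH and 0.0227 RPKM in LG, and its call between AD and LG was lost without LG replicate 3. Actn averaged 9.01 RPKM in AD, against 4.28 RPKM in PH and 8.73 RPKM in LG, and was not called in any pair. The titin-like gene sls averaged 2.82 RPKM in AD, against 0.308 RPKM in PH and 4.0 RPKM in LG. It was called between AD and PH but not between AD and LG.

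Of 6 muscle calcium and energy genes found, 4 were tested between AD and each larval group, with 3 called higher in AD than in PH (Gpdh, Argk and RyR) and 2 higher in AD than in LG (Gpdh and Argk). The glycerol phosphate dehydrogenase gene Gpdh averaged 163 ± 16.0 RPKM in AD, against 17.8 ± 1.44 RPKM in PH and 19.9 ± 1.24 RPKM in LG (SD, n = 3 each). Arginine kinase (Argk), which buffers ATP in muscle, averaged 25.0 ± 0.787 RPKM in AD, against 2.76 ± 0.652 RPKM in PH and 9.87 ± 1.85 RPKM in LG, and its call between AD and LG was lost with scaling to reads outside ribosomal RNA genes. SERCA, the calcium pump of the endoplasmic reticulum of all cells, averaged 53.2 RPKM in AD, against 33.4 RPKM in PH and 34.9 RPKM in LG, and was not called. RyR, the calcium release channel, was below 2 RPKM in all samples, and its call between AD and PH was lost without any 1 PH sample.

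Among 10 regulators of muscle found, the highest means over all 9 samples were those of sd and Mef2, a general muscle transcription factor, although bru1 and salm exceeded Mef2 by mean in AD. Mef2 was not called in any pair (6.10 ± 1.18 RPKM in AD, against 5.10 ± 1.18 RPKM in PH and 4.57 ± 2.27 RPKM in LG). Called higher in AD than in PH were 3 (salm, bru1 and vg), and 2 of these, bru1 and vg, were called higher in AD than in LG. With a pseudocount of 5 or a filter at RPKM above 5, 1 regulator in place of 3 was called between AD and LG. The splicing regulator bru1, known from flight muscle, had 6.89, 6.67 and 7.68 RPKM in AD, against 0.182, 0.233 and 0.167 RPKM in PH and 0.0430, 0 and 0.0142 RPKM in LG. Its log2 fold changes were 2.76 for AD over PH (limma, adjusted p = 9.3e-06) and 2.98 for AD over LG (limma, adjusted p = 3.2e-05). salm, a selector of flight muscle fate, had 6.28, 5.19 and 6.96 RPKM in AD, against 0.0514, 0.178 and 0.0425 RPKM in PH and 6.63, 0.108 and 0.760 RPKM in LG. LG replicate 1 lay among the AD samples, and salm was not called between AD and LG. H15 was called lower in AD than in LG, at 0.0336 RPKM in AD and 1.39 RPKM in LG on average, and this call was lost without any 1 of the 6 samples. It exceeded an RPKM of 1 in LG samples only, so its call could only be lower in AD. nau, the fly MyoD homologue, was at 0 in all 9 samples.

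Between PH and LG, many calls of the lists were lost when 1 sample was left out. Of all genes tested, 7.63% were called higher in PH and 6.57% lower. The genes bt, Mlp60A, sls and H15 had no PH sample above an RPKM of 1, so their calls could only be lower in PH. Of 11 thin filament genes tested, 2 were called higher in PH (cpa and cpb) and 5 lower (Act57B, Tm2, Mp20, up and Act87E). The call of cpa was lost with quantile normalization and with both scalings to reads. The call of up was lost without PH replicate 2 or 3 or any 1 LG sample, and that of Act87E without any 1 of the 6 samples. Tm2 had a log2 fold change of -2.94 for PH over LG (limma, adjusted p = 0.00019). Of the thick filament list, 2 of 4 genes tested were called lower in PH (bt and Prm), and the call of Prm was lost without PH replicate 2 or 3 or LG replicate 1 or 3. Of the Z-disc list, 4 of 6 were lower in PH (Zasp66, Mlp60A, Mlp84B and sls), of which Zasp66 kept its call whichever sample was left out. The call of Mlp60A was lost without any 1 sample, that of Mlp84B without PH replicate 1 or 2 or LG replicate 1 or 3, and that of sls without LG replicate 3. Argk was called lower in PH, but not without PH replicate 1 or 3 or LG replicate 3. Of the regulators, sd and H15 were called lower in PH. The call of sd was lost without any 1 PH sample or LG replicate 1 or 3, and that of H15 without any 1 of the 6 samples.

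The non-muscle counterparts had reads in every sample, and only some of them had the order of the muscle chains. Below an RPKM of 1 were ck in PH, jar in PH and LG (0.0585 RPKM in LG replicate 2), and didum in LG replicate 2. Of 8 genes for non-muscle myosins, their partners and calmodulin, 3 were called higher in AD than in PH (Rok, ck and jar) and 3 lower (Mlc-c, zip and sqh). Between AD and LG, 2 were called higher in AD (Rok and jar) and 1 lower (zip), and only zip was called without AD replicate 2 or 3. With a pseudocount of 5, 3 genes of the list in place of 6 were called between AD and PH, with Rok, ck and jar lost. Rok was also lost there with quantile normalization and jar without a filter. The call of Rok between AD and LG was lost without any 1 of the 6 samples, and that of ck between AD and PH without AD replicate 2 or any 1 PH sample. Mlc-c and sqh were called higher in PH than in LG, and the call of sqh was lost without any 1 PH sample or LG replicate 3. Mlc-c, the non-muscle essential light chain, had 160, 137 and 190 RPKM in AD, against 639, 577 and 625 RPKM in PH and 140, 247 and 148 RPKM in LG. It fell in AD relative to PH by 1.92 on the log2 scale (limma, adjusted p = 6.5e-06), and AD and LG overlapped. sqh, the non-muscle regulatory light chain, had 40.7, 48.0 and 41.8 RPKM in AD, against 112, 105 and 98.3 RPKM in PH and 19.5, 42.5 and 32.2 RPKM in LG. The non-muscle heavy chain gene zip had 50.6, 50.1 and 58.5 RPKM in AD, against 168, 161 and 119 RPKM in PH and 132, 257 and 155 RPKM in LG. Mlc-c and sqh were highest in PH, where the muscle chains had their lowest levels, and zip was lowest in AD. Calmodulin (Cam), the general calcium sensor related to troponin C, averaged 207 ± 10.9 RPKM in AD, against 114 ± 36 RPKM in PH and 242 ± 40.8 RPKM in LG (SD, n = 3 each) and was not called.

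**Figure D5:**
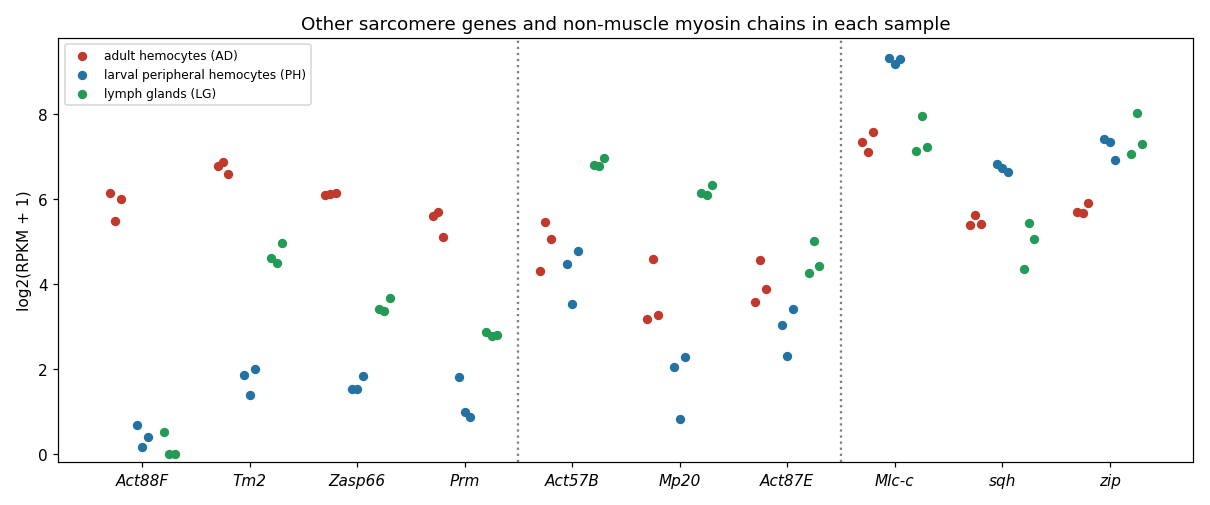
Levels as log2(RPKM + 1) of 10 further genes in the 9 samples (points), chosen after their values were seen. Left of the first dotted line are sarcomere genes highest in AD, between the lines those highest in LG by mean, and on the right the non-muscle essential light chain (Mlc-c), regulatory light chain (sqh) and heavy chain (zip). Act57B and Mp20 have means of 31.2 and 13.2 RPKM in AD, against 114 and 71.8 RPKM in LG.

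Markers of other cells that lie close to muscle or to the lymph gland were measured beside these genes. Of 9 heart and pericardial cell genes, the summed RPKM was 7.92 to 9.12 in AD, against 0.816 to 1.35 in PH and 14.5 to 27.1 in LG. Most of the AD sum was svp, with 7.22, 6.62 and 5.46 RPKM in AD, against 0.787, 0.487 and 0.418 RPKM in PH and 0.300, 0.059 and 0.0791 RPKM in LG. Hand, a transcription factor of heart and lymph gland, had 0, 0.464 and 0.424 RPKM in AD, against 0, 0.764 and 0 RPKM in PH and 26.3, 12.5 and 23.3 RPKM in LG. The heart gene tin was at 0 in all AD and PH samples and had 0, 1.39 and 0.333 RPKM in LG. Doc2 and Doc3 were at 0 in all 9 samples. Ork1 averaged 1.76 RPKM in AD and was at 0 in PH and LG. Sur averaged 0.0583 RPKM in AD, against 0 RPKM in PH and 0.548 RPKM in LG. Of 7 neuron genes, the summed RPKM was 74.5 to 90.6 in AD, against 1.54 to 2.29 in PH and 0.357 to 4.35 in LG. The neuron sum in AD was mostly cpx, at 68.6, 83.5 and 68.0 RPKM. The neuronal RNA-binding protein gene elav had 4.51, 6.11 and 6.40 RPKM in AD, against 0.529, 1.10 and 0.412 RPKM in PH and 1.24, 0.154 and 0.599 RPKM in LG. elav was called higher in AD than in PH (log2 fold change 2.0, limma, adjusted p = 0.0002) and than in LG (log2 fold change 2.05, limma, adjusted p = 0.0011). Syn averaged 0.775 RPKM in AD, against 0.0313 RPKM in PH and 0.109 RPKM in LG, and nSyb 0.242, 0.0788 and 0.439 RPKM in AD, PH and LG. The synaptic and channel genes brp, para and Syt1 were each below 0.1 RPKM in AD. The summed RPKM of 6 genes of adult fat body and yolk was 7979 to 12399 in AD, against 33.9 to 37.9 in PH and 6.69 to 42.9 in LG. The part of these cell types, and of muscle fibres themselves, in the levels of the myosin and troponin C genes was not tested.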

How the data were processed

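The authors trimmed single-end reads with Trimmomatic (0.32 in the submitters' processing notes), aligned them to dm6 with HISAT2 (2.1.0), counted them per gene with HTSeq (0.5.4p5) and made RPKM values with Cufflinks (2.2.1). Whether strand was used is not given in the sources used here. The deposited RPKM values, written with decimal commas, fill 9 columns, all of which were used. With exon lengths from the BDGP6.54 annotation of Ensembl, 98.9% of genes were matched, and 97.8 to 98.0% of values gave whole reads within 0.02. The values already carried a median-of-ratios scaling. Read counts served for detection limits (3 reads) and 95% exact intervals only, which cover counting error.

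Pairs of groups were compared on log2(RPKM + 1) with limma 3.58.1 in R 4.3.3 (lmFit, eBayes with trend, two-sided, Benjamini-Hochberg over all genes tested, RPKM above 1 in at least 3 of 6 samples), which was tested on simulated data. The thresholds follow the study. Alternatives were a pseudocount of 0.1 or 5, no filter or RPKM above 5, other scalings, all 9 samples in 1 fit, a replicate block and leaving out each sample. Within the muscle, non-muscle myosin, heart and neuron lists, the 4 genes of highest mean RPKM and those a count needs were named. Others were added after their values were seen. The hemocyte markers named are examples, and the fat body lists are given as sums only. The genes and lists were chosen with earlier results of these data known. The wupA, Jp and ap genes of the lists were not found by symbol. Python 3.11.15, pandas 2.3.3, numpy 2.4.6, scipy 1.17.1 and matplotlib 3.10.9 were used.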

Additional observations from a re-analysis of the deposited data

How the results depend on the processing

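No fold change of the 10 genes, nor of any called gene of the muscle, non-muscle myosin and heart lists, changed its sign under any alternative. Genes called numbered 2844 (AD versus PH), 2358 (AD versus LG) and 1007 (PH versus LG). With a pseudocount of 5 they numbered 1711, 1483 and 615, and without a filter 1181 (AD versus LG) and 137 (PH versus LG). Without a filter, 4 of the 10 genes were called between AD and LG in place of 7, and 0 between PH and LG in place of 6, the fit then spanning all 17490 genes. Leaving out 1 sample gave 2473 to 2666, 1622 to 2341 and 399 to 1229 genes called, and 5 to 6, 5 to 7 and 5 to 6 of the 10 genes. Same-numbered samples did not deviate together (correlations of -0.11 to 0.05). A replicate block gave 2833, 2031 and 802 genes called and 5, 6 and 6 of the 10 genes. The call lost was that of Mhc between AD and LG. Scalings chosen after seeing the data, to total reads and to reads outside ribosomal RNA genes, moved the median log2 fold change of all genes by 0.092 and -0.12 (AD versus PH), -0.22 and -0.29 (AD versus LG) and -0.32 and -0.17 (PH versus LG), and quantile normalization by -0.24, -0.24 and -0.012. Genes called higher and lower then numbered 1457 and 1437 by quantiles in place of 1773 and 1071 (AD versus PH), 1214 and 1324 by reads outside ribosomal RNA genes in place of 1553 and 805 (AD versus LG), and 320 and 732 by total reads in place of 541 and 466 (PH versus LG). At this depth fln, TpnC41C and TpnC25D rested on at most 16 reads in any library.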

Other observations

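Some genes moved together among replicates of 1 group, a pattern noticed in the values and not tested. Within AD, replicate 2 had the highest TpnC73F (20.9 RPKM), TpnC47D (6.27 RPKM), Act57B (42.8 RPKM), Act87E (22.4 RPKM) and Mp20 (23.0 RPKM), and the lowest TpnC4 (109 RPKM), fln (0.509 RPKM) and Act88F (44 RPKM). The other AD replicates had 8.76 and 18.0 RPKM of TpnC73F, 18.6 and 32.1 RPKM of Act57B and 69.5 and 62.3 RPKM of Act88F. Within PH, replicate 2 had the lowest TpnC73F (4.29 RPKM), TpnC47D (0.689 RPKM), Mlc1 (2.83 RPKM), Mf (1.10 RPKM), Act57B (10.4 RPKM), Act87E (3.93 RPKM) and Mp20 (0.767 RPKM). Other muscle genes were lowest in PH replicate 3 instead, among them Mhc (0.688 RPKM), Prm (0.824 RPKM), bt (0.436 RPKM), up (6.26 RPKM) and sls (0.119 RPKM). Some of these values rested on few reads, with 12, 3 and 6 reads of TpnC47D in PH.

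Among 8065 genes that exceeded an RPKM of 1 in 3 or more samples of the 9, the profile of log2(RPKM + 1) most like that of Mhc was cwo (Pearson r = 0.996 over 9 samples), a transcription factor of the circadian clock, followed by CG10600, slgA, scyl and CG3198 (r of 0.984 to 0.985). These genes share the same libraries and groups, and no p is given. The light chains came after them, Mlc1 at rank 134 (r = 0.94) and Mlc2 at rank 170 (r = 0.93). cwo averaged 34.8 RPKM in AD, against 13.6 RPKM in PH and 23.6 RPKM in LG. The profile most like that of fln was that of a U6 snRNA gene (r = 0.993 over 9 samples), followed by CG6330, CG9815, CR45021 and CG18107, with TpnC4 at rank 149 (r = 0.92) and TpnC73F at r = -0.34.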
